A study of Mus musculus with 15 samples.

Results

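The Myc, Max and Mxd network was followed across dysplasia and unaltered lung of SP-C/c-raf transgenic mice. The 9 genes considered were Myc, Mycl, Mycn, Max, Mxd1, Mxd3, Mxd4, Mxi1 and Mnt, and every probe set that the array annotation assigns to only 1 of them was taken. This gave 22 of 45037 probe sets, the control probe sets left out. A probe set was tested when its mean signal over the 15 arrays was above 100, which held for 11 of the 22 and for 21658 probe sets in all. The tested probe sets stand for 8 of the 9 genes, because the 3 probe sets of Mycl were all below this limit. Each of the 11 had a mean signal above 100 in every group, so none of them was tested through a single group alone.

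By the methods, dysplasia (n = 5) and transgenic but unaltered lung (n = 5) came from the same dysplasia-bearing SP-C/c-raf mice aged 5 to 7 months. Lung of wild-type, non-transgenic littermates aged 7 to 10 months (n = 5) was the other control. In the transgenic line the surfactant protein C promoter drives c-raf in respiratory epithelium, and this line, first bred on a hybrid background of C57BL/6 and DBA/2, had been held on C57BL/6 for 5 or more generations. Cells were laser-microdissected from frozen sections, and the RNA of each sample was hybridised to an Affymetrix mouse genome array of its own. Signals are linear intensities that were scaled to the same target on each array. One array, transgenic 2, is titled as transgenic but unaltered while another of its labels reads tumor. It was kept in the transgenic group, and the member calls that change without it are named below. The methods give 5 SP-C/c-raf and 5 non-transgenic mice, as many as the arrays of each group, while the labels do not tie each array to a mouse.

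Myc proteins are transcription factors that bind DNA only as a pair with Max, at the E-box, and activate genes of ribosome assembly, metabolism and cell division. The Mxd proteins, Mxi1 and Mnt compete for the same partner, and their pairs with Max recruit corepressors to the same sites. In many cell types Mxd1 is known as a gene of differentiating cells and Mxd3 as a gene of the S phase. RAF kinases act upstream of MEK and ERK, and ERK is known to phosphorylate and stabilise the Myc protein, a step that RNA measurements do not see.

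Between 44.1% and 49.9% of the probe sets of an array had a signal above 100. The markers of alveolar type 2 cells, the cells in which surfactant protein C is active, summed to 86489–144117 in dysplasia, 83220–134621 in unaltered transgenic and 75412–101446 in non-transgenic tissue, with no marker at 0. Of the 6 tested type 2 markers, Etv5 was higher in dysplasia versus transgenic (ratio 1.42), and the other 5 were not called. In dysplasia versus non-transgenic Etv5 (ratio 1.53) and Abca3 (ratio 1.51) were higher, and the other 4 were not called. Markers of other cells differed as well. All 8 endothelial markers were lower in dysplasia in both comparisons, and their signals summed to 7754–12638 in dysplasia, 31624–40844 in unaltered transgenic and 33103–45778 in non-transgenic tissue, again with no marker at 0. In tissue samples of this kind, fewer cells of a type and less RNA per cell cannot be told apart.

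In dysplasia versus transgenic, 5 of the 11 tested probe sets of the network differed at an adjusted p below 0.05, against 33.2% of all tested probe sets. The probe sets called higher were 1 of Myc and both of Mxd1, and those called lower were 1 of Max and 1 of Mxi1, while 15.3% of all tested probe sets were called higher and 17.9% lower. In dysplasia versus non-transgenic 6 of the 11 were called, against 44.0% of all, with Mycn lower besides the same 5 probe sets. The higher calls were 20.7% and the lower calls 23.3% of all probe sets there. The shares of called probe sets are thus near the general level of these comparisons, and both comparisons use the same dysplasia arrays. The median log2 change over the 11 was -0.04 in dysplasia versus transgenic and 0.01 in dysplasia versus non-transgenic, beside -0.01 and -0.03 over all tested probe sets. In transgenic versus non-transgenic, limma called none of the 11, and none had an unadjusted p below 0.05, while 1.26% of all probe sets were called.

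**Figure D1:**
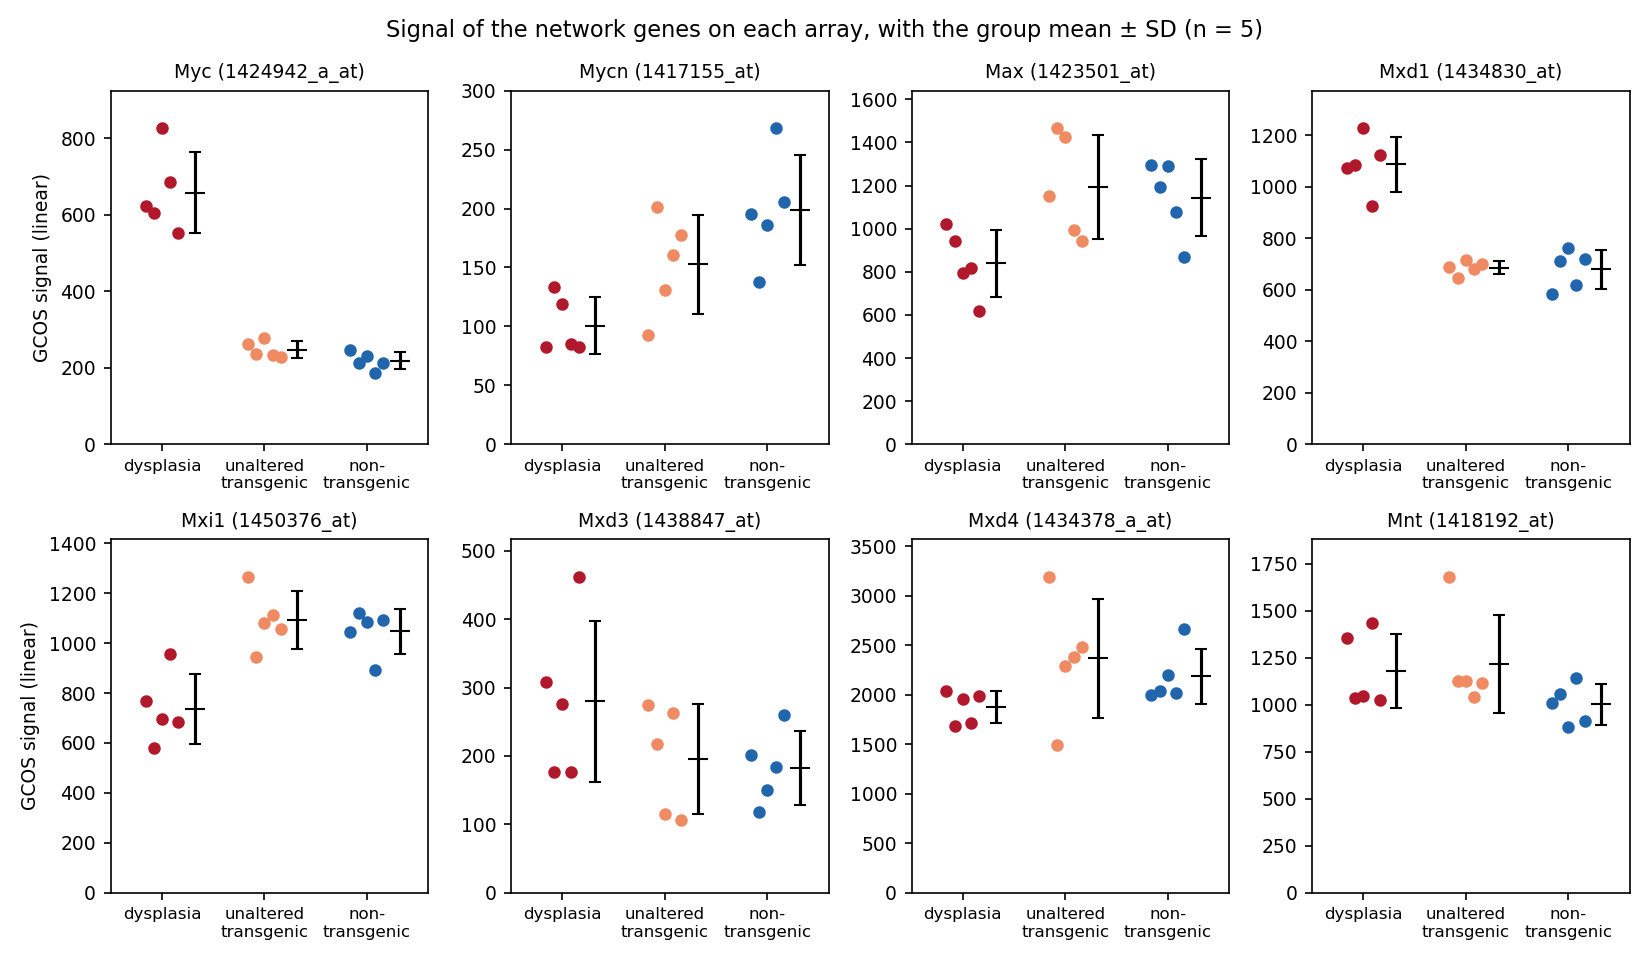
Signal (linear GCOS intensity) of the brightest probe set of each of 8 network genes on the 15 arrays, 5 arrays in each of dysplasia, unaltered transgenic and non-transgenic tissue. Dots are arrays, and black bars are the group mean ± SD. The dysplasia arrays of Myc lie between 553 and 826, above all others, and those of Mxd1 between 925 and 1226, likewise above all others.

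Myc, the member that pairs with Max to activate genes, showed the largest log2 change of the 11 probe sets in both dysplasia comparisons. Its only probe set (1424942_a_at) had signals of 622, 605, 826, 686 and 553 on dysplasia arrays 1 to 5, against 263, 237, 278, 232 and 228 on transgenic arrays and 246, 213, 232, 188 and 212 on non-transgenic arrays. The lowest dysplasia array was above the highest array of either control, and Myc averaged 659 ± 105 in dysplasia, 248 ± 21.9 in transgenic tissue and 218 ± 22.1 in non-transgenic tissue (SD, n = 5 each). The ratio was 2.66 in dysplasia versus transgenic (log2 change 1.24, SE 0.11, adjusted p = 1.44e-05) and 3.02 in dysplasia versus non-transgenic (log2 change 1.39, SE 0.11, adjusted p = 2.86e-06). Both passed the stricter limits, a ratio of 2 or more with an adjusted p no higher than 0.001, which 3.10% and 4.90% of all probe sets passed upward. A larger log2 rise was measured for 459 probe sets in dysplasia versus transgenic and for 545 in dysplasia versus non-transgenic. In the 5 pairs of dysplasia and transgenic arrays with the same number, the log2 difference lay between 1.10 and 1.42. These pairs cannot be taken as tissue of 1 mouse, since the number is not said to mark the mouse. In transgenic versus non-transgenic the log2 change of Myc was 0.15, with a 95% interval of -0.04 to 0.35, and was not called (adjusted p = 0.550). Each of the 5 transgenic arrays was above the non-transgenic array of the same number, by 0.08 to 0.25 on the log2 scale. These arrays come from different mice, so the shared number does not pair them. With the array number as a replicate block the adjusted p by limma was 0.323.

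Mycn, the relative of Myc best known from embryonic and neural tissue, had low signals and ran the other way. Its brightest probe set (1417155_at) gave 82.7, 134, 119, 84.7 and 82.6 on dysplasia arrays, against 92.9, 201, 131, 161 and 178 on transgenic arrays and 196, 138, 186, 268 and 205 on non-transgenic arrays. All dysplasia arrays were below all non-transgenic arrays, as for 17.5% of all probe sets, while dysplasia and transgenic arrays overlapped. Relative to non-transgenic tissue Mycn fell to a ratio of 0.507 (log2 change -0.72, SE 0.15, adjusted p = 0.00247). Relative to transgenic tissue the ratio was 0.659 (log2 change -0.42, SE 0.16), which missed the threshold at an adjusted p of 0.0738 and passed it at 0.0172 with the array number as a replicate block. The call was also made without dysplasia 2 (adjusted p = 0.0462) and without transgenic 1 (adjusted p = 0.0144). The other Mycn probe sets, 1425923_at and 1425922_a_at, averaged 50.9 and 27.8 over all arrays and were not tested.

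Mycl, the remaining Myc gene, was dim on every array. The brightest of its probe sets (1434777_at) gave 87.8, 80.3, 66.6, 135 and 83.0 in dysplasia, 87.1, 39.0, 19.1, 82.4 and 84.3 in unaltered transgenic and 54.6, 36.7, 70.3, 97.4 and 43.0 in non-transgenic tissue. These groups overlap and lie near the background of the array. The 2 further probe sets averaged 14.1 and 14.0.

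Max, the common partner of all these proteins, was lower in dysplasia. Signals of 1423501_at were 1021, 942, 796, 818 and 616 on dysplasia arrays, against 1150.2, 1465, 1423, 991 and 941 on transgenic arrays and 1293, 1192, 1289, 1076 and 866 on non-transgenic arrays. The ranges overlap, since dysplasia 1 and 2 reach into both controls. Each dysplasia array was below the transgenic array of the same number, but the number is not said to mark the mouse. The ratio was 0.702 in dysplasia versus transgenic (log2 change -0.48, SE 0.16, adjusted p = 0.0392) and 0.733 in dysplasia versus non-transgenic (log2 change -0.43, SE 0.15, adjusted p = 0.0358). These calls were close to the threshold. In dysplasia versus transgenic the adjusted p passed 0.05 when dysplasia 3, 4 or 5 or transgenic 1, 2 or 3 was left out, reaching 0.0950 without transgenic 3. In dysplasia versus non-transgenic it did so without dysplasia 3, 4 or 5 or non-transgenic 1, 2, 3 or 4, up to 0.0848 without non-transgenic 3.

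Mxd1, which pairs with Max and represses, rose together with Myc, and its 2 tested probe sets gave the same direction. With 1434830_at the signals were 1070.2, 1085, 1226, 925 and 1123 in dysplasia, against 686, 647, 715, 679 and 698 in unaltered transgenic and 584, 712, 760.4, 617 and 719 in non-transgenic tissue. No dysplasia array overlapped with a control array. The ratio was 1.59 relative to transgenic (log2 change 0.62, SE 0.09, adjusted p = 2.79e-04) and 1.60 relative to non-transgenic tissue (log2 change 0.64, SE 0.10, adjusted p = 3.97e-04). The dimmer 1455104_at gave 343, 337, 504, 414 and 396 in dysplasia, against 147, 298, 173, 204 and 229 in unaltered transgenic and 174, 184, 207, 255 and 154 in non-transgenic tissue, and again all dysplasia arrays were above all control arrays. Its ratios were 1.90 (log2 change 0.80, SE 0.16, adjusted p = 0.00245) and 2.05 (log2 change 0.88, SE 0.13, adjusted p = 2.87e-04), the second of which passed the stricter limits. A further probe set, 1422002_at, averaged 25.3 over all arrays and was not tested. Mxd1 and Myc supply the 3 probe sets whose dysplasia arrays all lay above the arrays of a control, as 11.8% of all probe sets did in dysplasia versus transgenic and 15.8% in dysplasia versus non-transgenic.

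Mxi1, another repressor of the same family, was lower in dysplasia, opposite to Mxd1. The signals of 1450376_at were 768, 578, 696, 958 and 685 on dysplasia arrays, against 1265, 943, 1079.5, 1112 and 1055 on transgenic arrays and 1044, 1121, 1086, 893 and 1091 on non-transgenic arrays. Only dysplasia 4 reached into the range of the controls. The ratio was 0.675 in dysplasia versus transgenic (log2 change -0.55, SE 0.13, adjusted p = 0.00692) and 0.704 in dysplasia versus non-transgenic (log2 change -0.49, SE 0.13, adjusted p = 0.00798). The second Mxi1 probe set (1425732_a_at) averaged 50.9 and was not tested.

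Markers of other cell types moved with the same samples. Besides the 8 endothelial markers, 3 of 3 neutrophil, 2 of 2 mesothelial, 2 of 2 red cell, 2 of 3 smooth muscle and 3 of 7 mesenchymal markers were lower in dysplasia versus transgenic, as were 4 of 5 macrophage markers and 3 of 6 of alveolar type 1 cells. The neutrophil markers summed to 1268–2198 in dysplasia and 3931–9099 in transgenic tissue, and the macrophage markers to 8783–11533 in dysplasia and 16082.5–16886 in transgenic tissue. Aqp5, also listed for alveolar type 1 cells, was higher (ratio 1.64), and so were 2 of 4 club cell markers, Scgb3a2 (ratio 2.36) and Cyp2f2 (ratio 2.57). In dysplasia versus non-transgenic the neutrophil, mesothelial, red cell and smooth muscle markers tested were all lower, 2 of 5 macrophage markers were lower and 1 was higher, and no club cell marker was called. No mean of a marker was 0 in any group. The part of these cells in the higher signals of Myc and Mxd1 and in the lower ones of Max, Mxi1 and Mycn was not tested. The signal of the 5′ actin control probe set was 57.1% of the 3′ one in dysplasia, 38.9% in unaltered transgenic and 31.0% in non-transgenic tissue (medians), a measure of RNA integrity. The ranges overlap widely, at 25.1–75.2%, 12.5–63.4% and 14.1–72.8% in the same order. Xist, which is transcribed from the inactive X chromosome of females, exceeded 1000 on 2 of 5 dysplasia, 1 of 5 transgenic and 4 of 5 non-transgenic arrays. Dysplasia 4 was above this level and transgenic 4 below it. With either measure as a covariate no called member lost its call.

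For the other repressors no call was made. Mxd3 (1438847_at) gave 308, 176, 276, 176 and 462 in dysplasia, against 275, 217, 115, 263 and 106 in unaltered transgenic and 202, 118, 150.1, 184 and 259.6 in non-transgenic tissue, a wide spread within each group. Its log2 change was 0.43 in dysplasia versus transgenic (95% interval -0.19 to 1.04) and 0.46 in dysplasia versus non-transgenic (95% interval -0.06 to 0.99, adjusted p = 0.140). Mnt (1418192_at), which is expressed in dividing and resting cells alike, gave 1356, 1039, 1047, 1434 and 1024 in dysplasia, against 1681, 1128, 1127, 1044 and 1115 in unaltered transgenic and 1009.8, 1060.2, 881, 1145 and 914 in non-transgenic tissue. These ranges overlap, and the log2 change of Mnt was -0.04 in dysplasia versus transgenic (95% interval -0.37 to 0.29) and 0.22 in dysplasia versus non-transgenic (95% interval -0.05 to 0.49).

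Mxd4 was measured with 3 tested probe sets. The brightest, 1434378_a_at, gave 2034, 1684, 1954, 1710.3 and 1987 in dysplasia, against 3191, 1498, 2293, 2383 and 2479 in unaltered transgenic and 1998, 2042, 2199, 2019 and 2667 in non-transgenic tissue. Transgenic 2, the array with conflicting labels, was the lowest of all, and transgenic 1 the highest. The log2 change of this probe set was -0.30 in dysplasia versus transgenic (95% interval -0.67 to 0.08, adjusted p = 0.217), and -0.45 with an adjusted p of 0.0175 when transgenic 2 was left out. For 1434379_at it was -0.21 and for 1422574_at 0.00, neither of them called. The intervals of 1422574_at ran from -0.54 to 0.54, so a moderate change in either direction was not detectable with this probe set. Its signals followed the array number: 561, 433, 427, 337 and 308 on dysplasia arrays 1 to 5 and 715, 505, 396, 301 and 242 on transgenic arrays 1 to 5. In both groups array 1 was the brightest and array 5 the dimmest.

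No member was called between the unaltered transgenic and the non-transgenic tissue. The largest of the 11 log2 changes in this comparison, in either direction, was that of Mycn (-0.30, 95% interval -0.68 to 0.08, adjusted p = 0.543), and the smallest adjusted p was 0.489, for Mnt. The 95% intervals of the 11 probe sets lay between -0.68 and 0.62. Of 5 macrophage markers 2 were higher in transgenic tissue, Mrc1 (ratio 2.09) and Cd68 (ratio 2.03). Adgre1 (ratio 1.70), Csf1r (ratio 1.001) and Marco were not called. Marco ran the other way (ratio 0.634, unadjusted p = 0.0388 by limma). Of 3 tested smooth muscle markers 1 was lower in transgenic tissue, Myh11 (ratio 0.751, adjusted p = 0.0483).

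**Figure D2:**
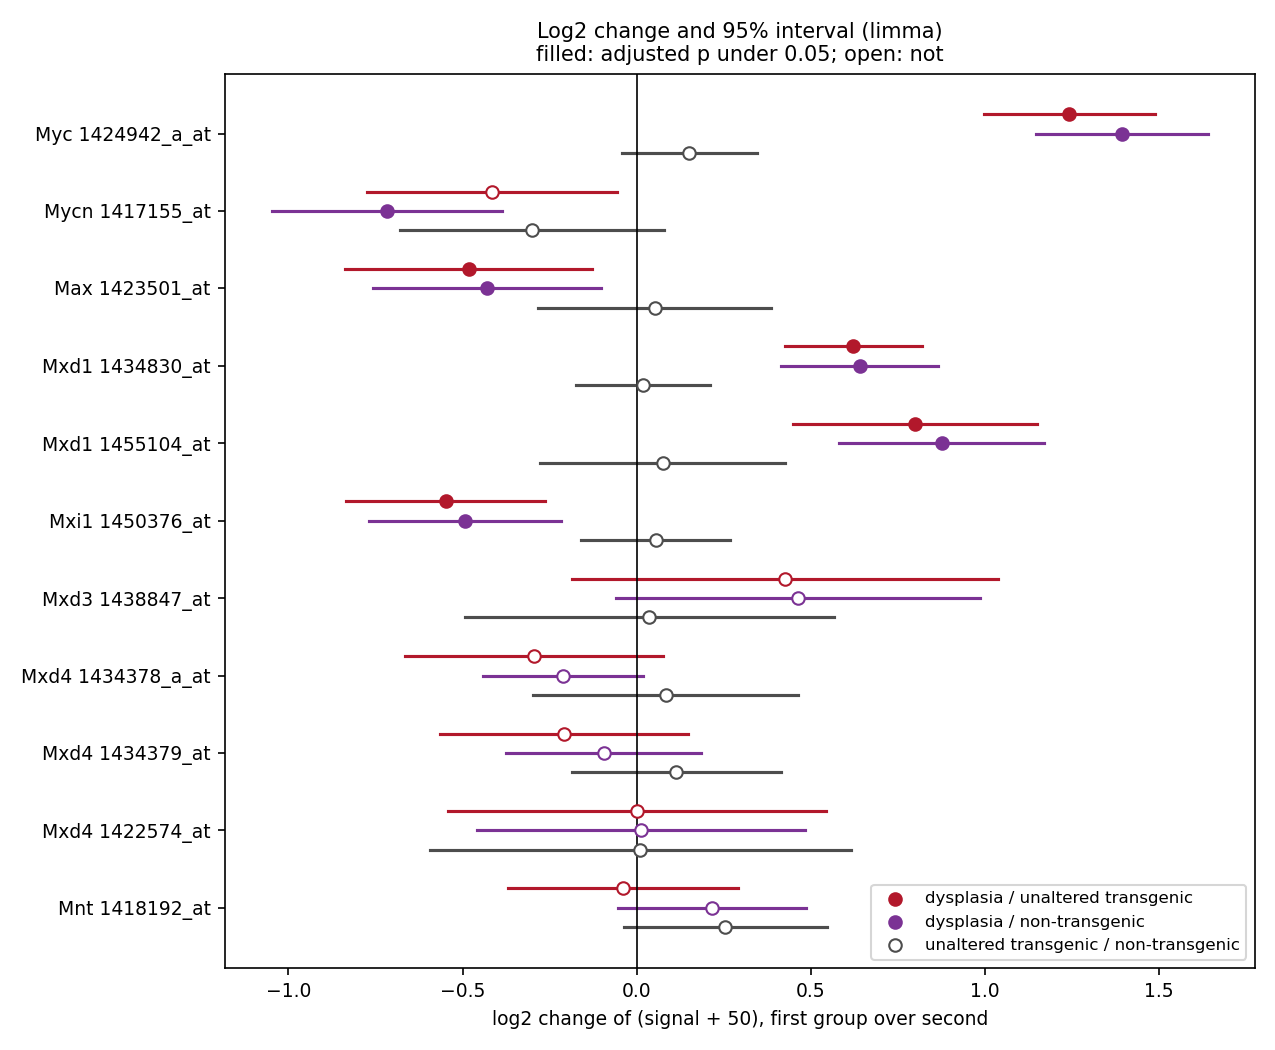
Log2 change of (signal + 50) with its 95% interval for the 11 tested probe sets, in dysplasia over unaltered transgenic, dysplasia over non-transgenic and unaltered transgenic over non-transgenic tissue (5 arrays a group). Filled symbols have an adjusted p below 0.05: Myc and Mxd1 lie to the right of 0 and Max, Mxi1 and Mycn to the left, and none of the transgenic over non-transgenic symbols is filled.

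Some genes resembled the called members in their pattern over the 15 arrays. As a measure, the root mean square difference between the centred log2 signals was taken against up to 19224 other single-gene probe sets, and the 3 nearest were named. Nearest to Myc were Fam162a (0.14), Ccdc141 (0.15) and Siva1 (0.15), while Myc itself had an SD of 0.66 over the arrays. Nearest to Mxd1 were Ulk1, a kinase that starts autophagy (0.09), Castor2 (0.10) and the ribosomal protein gene Rpl13a (0.10). Max was closest to Ankrd40, Rras2 and Sav1 (0.13 to 0.14), Mxi1 to Sh3glb1, Tacc1 and Zhx3 (0.08 to 0.11) and Mycn to Phf6, Rbbp9 and Leprot (0.14 to 0.15). The SD of these members was smaller than that of Myc, at 0.33 for Mxd1, 0.33 for Max, 0.31 for Mxi1 and 0.40 for Mycn.

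A parallel arm of the network has Mlx in the place of Max, and Mga, a partner of Max, was listed with it. Of the 4 genes of this list 3 were tested. None was called by limma in dysplasia versus transgenic, nor did one have an unadjusted p below 0.05. In dysplasia versus non-transgenic 2 of the 3 were lower, against 26.0% of all genes. Mlx itself ran the other way and just missed the call by limma (log2 change 0.25, adjusted p = 0.0531). Mga, a large protein that binds Max, fell with a log2 change of -0.47 (adjusted p = 0.0234) and Mlxip, a glucose-sensing partner of Mlx, with one of -0.25 (adjusted p = 0.0475). Among 25 cofactors, corepressors and regulators of Myc stability 23 were tested, at the brightest probe set of each gene. In dysplasia versus transgenic 3 were higher and 2 lower, against 18.6% higher and 21.0% lower over the brightest probe sets of 11603 genes. Aurka, a mitotic kinase that also shields N-Myc from degradation, had mean signals of 194 in dysplasia and 104 in transgenic tissue, a ratio of 1.86 (adjusted p = 0.00209). Cip2a, an inhibitor of a phosphatase that destabilises Myc, averaged 179 in dysplasia and 80.4 in transgenic tissue, a ratio of 2.23 (adjusted p = 0.00700). Its non-transgenic mean was 95.9. Both control means of Cip2a were thus below the limit on the mean signal, and it was tested through dysplasia alone. The non-transgenic mean of Aurka, 69.4, was below this limit as well. Bin1, a Myc-binding adaptor, fell to 354 in dysplasia, against 704 in transgenic tissue (ratio 0.503, adjusted p = 0.00120). Fbxw7, the subunit by which a ubiquitin ligase recognises the Myc protein, fell to 547 in dysplasia, against 824 in transgenic tissue (ratio 0.664, adjusted p = 0.00319). In dysplasia versus non-transgenic 5 of the 23 were higher and 3 lower, against 24.7% and 26.0% over all genes, and Aurka (ratio 2.79), Cip2a (1.87), Bin1 (0.450) and Fbxw7 (0.642) had the same direction. None of the 23 was called by limma in transgenic versus non-transgenic, where 2 had an unadjusted p below 0.05.

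Many of the genes known as induced by Myc were higher in dysplasia. The list was chosen with earlier results of these data known, and its shares were not tested as a set. Of 45 listed genes 39 were tested, and in dysplasia versus transgenic 17 were called higher (43.6%, against 18.6% over all genes) and 1 lower (2.56%, against 21.0%), with a median log2 change of 0.37 beside -0.01 over all genes. In dysplasia versus non-transgenic 21 were higher (53.8%, against 24.7%) and limma called none lower (26.0% over all genes, and 2 of the 39 at an unadjusted p below 0.05), with a median of 0.51. The largest change was that of Shmt1, an enzyme of one-carbon metabolism, whose mean signal was 865 in dysplasia, 248 in unaltered transgenic and 167 in non-transgenic tissue (ratio 3.49 to transgenic, adjusted p = 1.04e-05, and 5.17 to non-transgenic, adjusted p = 1.21e-06). Ldha, the enzyme that makes lactate, averaged 10687 in dysplasia, 6386 in unaltered transgenic and 4487 in non-transgenic tissue. Its ratio was 1.67 to transgenic (adjusted p = 2.93e-04) and 2.38 to non-transgenic tissue (adjusted p = 3.42e-06). Prdx3, a mitochondrial peroxidase, was 1.70 times as bright as in transgenic tissue (adjusted p = 2.49e-04), and Npm1, a nucleolar protein of ribosome assembly, 1.53 times (adjusted p = 3.14e-04). The amino acid transporter gene Slc7a5 had a ratio of 2.52 to non-transgenic tissue (adjusted p = 1.72e-05). The lower gene, named after its value was seen, was Mthfd1, also of one-carbon metabolism (ratio 0.698, adjusted p = 0.0225).

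In transgenic versus non-transgenic, where no network member was called, 3 of the 39 were higher (7.69%, against 1.59% over all genes). They were Ldha (ratio 1.42, adjusted p = 0.0220), Slc7a5 (ratio 1.55, adjusted p = 0.0368) and Shmt1 (ratio 1.48, adjusted p = 0.0470). These calls were not stable. Without transgenic 2, 3 or 4 or non-transgenic 1, 2 or 3, limma called 0 of the 39 higher, and without transgenic 1 it called 1. With the array number as a replicate block it called 1 as well.

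Of 6 genes known as repressed by Myc, all tested, 1 (16.7%) was higher and 2 (33.3%) were lower in each dysplasia comparison. Over all genes 18.6% were higher and 21.0% lower in dysplasia versus transgenic, and 24.7% and 26.0% in dysplasia versus non-transgenic. Cdkn1a, the cell cycle inhibitor p21, averaged 5993 in dysplasia, 2485 in unaltered transgenic and 1837 in non-transgenic tissue (ratios 2.41, adjusted p = 4.08e-04, and 3.26, adjusted p = 4.17e-05). Ndrg2, named as a gene regulated downstream of N-Myc, fell to 411 in dysplasia, against 1087 in unaltered transgenic and 1282 in non-transgenic tissue (log2 changes -1.30 and -1.53, adjusted p = 7.94e-06 and 1.15e-06). Cdkn1b, the inhibitor p27, fell to 1542 in dysplasia, against 2568 in transgenic and 2945 in non-transgenic tissue (log2 changes -0.75 and -0.95, adjusted p = 0.0321 and 0.00496). The median log2 change of the 6 was 0.10 in dysplasia versus transgenic.

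Most proliferation genes were higher in dysplasia, in a list likewise chosen with earlier results known and not tested as a set. Of 18 listed genes 16 were tested, and 12 were higher in dysplasia versus transgenic (75.0%, against 18.6% over all genes) and 14 in dysplasia versus non-transgenic (87.5%, against 24.7%), with 0 called lower by limma and 0 lower at an unadjusted p below 0.05. The median log2 change of the 16 genes was 0.72 relative to transgenic and 0.92 relative to non-transgenic tissue. Aurkb, called higher in both comparisons, averaged 172 in dysplasia, 80.9 in unaltered transgenic and 77.3 in non-transgenic tissue. Both control means of Aurkb were below the limit on the mean signal, so it was tested through dysplasia alone. The non-transgenic mean of Plk1, 95.1, was below this limit as well. Cdk1, the kinase that drives entry into mitosis, averaged 557 in dysplasia, 201 in unaltered transgenic and 135 in non-transgenic tissue (ratios 2.78, adjusted p = 6.55e-05, and 4.14, adjusted p = 1.86e-06). Birc5, or survivin, had a ratio of 2.71 to transgenic tissue, the mitotic kinase gene Plk1 one of 2.33, and Ccna2, a cyclin of the S and G2 phases, one of 2.10. Top2a, which untangles replicated DNA, had a ratio of 2.65 to non-transgenic tissue. In transgenic versus non-transgenic limma called 0 of the 16, while 7 were higher at an unadjusted p below 0.05 and the median log2 change was 0.25.

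**Figure D3:**
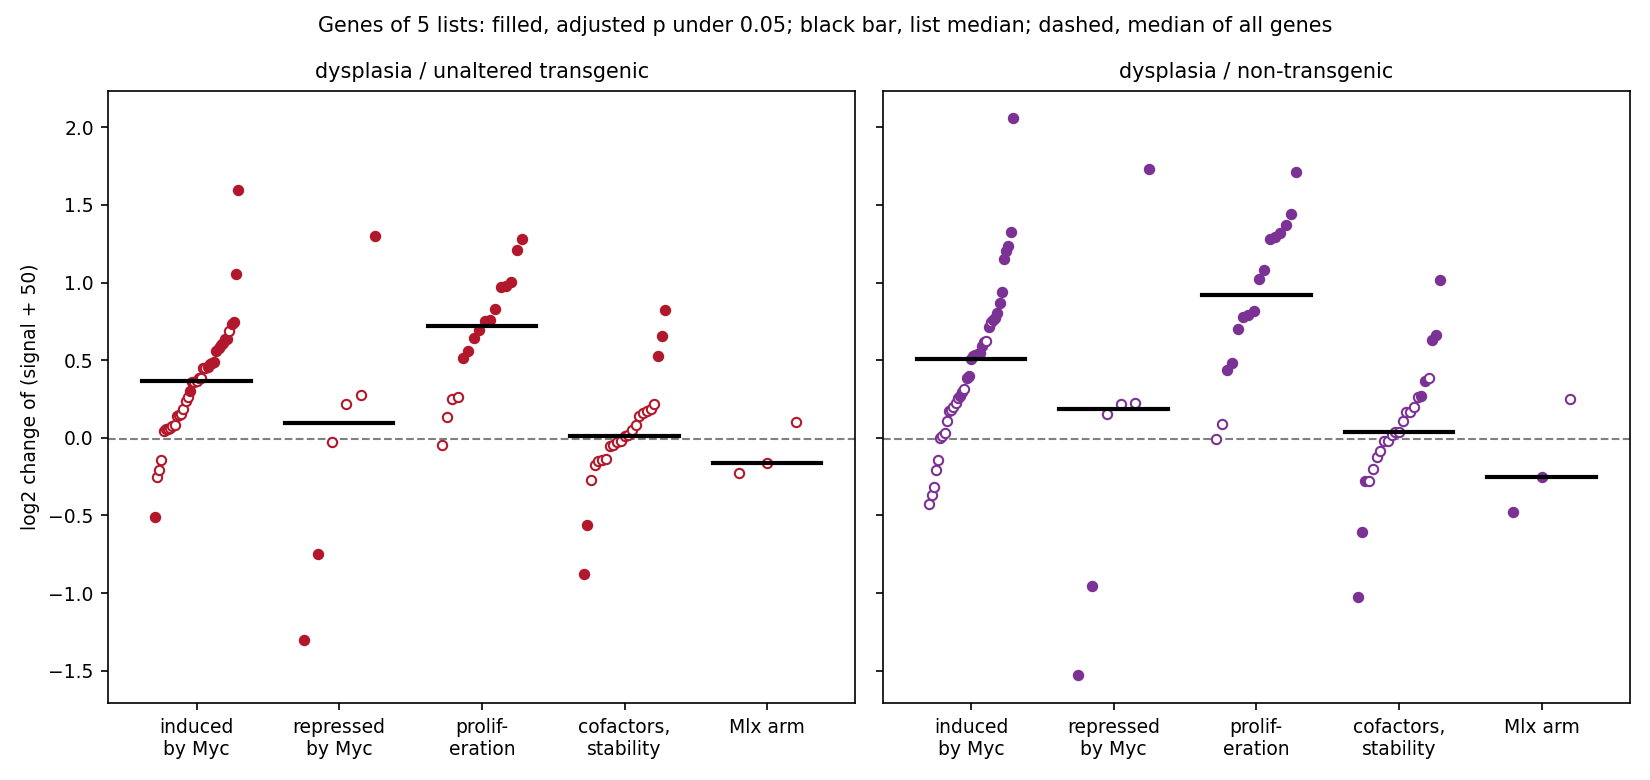
Log2 change of (signal + 50) of each tested gene of 5 lists, dysplasia over unaltered transgenic tissue on the left and dysplasia over non-transgenic tissue on the right, at the brightest probe set of each gene. Filled symbols have an adjusted p below 0.05, black bars are list medians (0.37 and 0.51 for the genes induced by Myc, 0.72 and 0.92 for the proliferation genes), and the dashed line is the median of 11603 genes.

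The promoters of the network genes were read to see where the binding sequence of these factors itself occurs. RefSeq promoters on GRCm38.p6, from 250 bases before the start site to 50 after it, were matched by symbol for 8 of the 9 genes, 10 promoters in all since Mxi1 has 3 start sites. Myc was the gene without a match, so its promoter was not read here. Searched were the E-box CACGTG, which reads the same on both strands, and the E2F-type letters TTTGGCGC or TTTCCCGC on either strand. The E-box was in 3 of the 10 promoters and in 7.15% of 32851 promoters of the genome. It begins 3 bases before the start site in Max, 123 bases before it in Mnt and 219 bases before it in Mxd4. Mycn holds the E2F-type letters at 183 and 168 bases before its start site, letters found in 1.56% of all promoters, and Mxd1, Mxd3, Mxi1 and Mycl hold neither. No match overlaps another. The 3 promoters below are those of called members, with either motif in capitals: Max with its E-box at the start site, Mycn with its pair of E2F-type matches, and Mxd1, which rose and holds neither.
Max (chr12:76962199-76962498, minus strand): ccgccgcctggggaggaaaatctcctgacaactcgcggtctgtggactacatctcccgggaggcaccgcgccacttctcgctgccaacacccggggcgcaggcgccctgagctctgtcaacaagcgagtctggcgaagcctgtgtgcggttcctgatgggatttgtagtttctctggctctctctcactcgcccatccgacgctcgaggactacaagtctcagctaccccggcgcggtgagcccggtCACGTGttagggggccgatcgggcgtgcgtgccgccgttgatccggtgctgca
Mycn (chr12:12941787-12942086, minus strand): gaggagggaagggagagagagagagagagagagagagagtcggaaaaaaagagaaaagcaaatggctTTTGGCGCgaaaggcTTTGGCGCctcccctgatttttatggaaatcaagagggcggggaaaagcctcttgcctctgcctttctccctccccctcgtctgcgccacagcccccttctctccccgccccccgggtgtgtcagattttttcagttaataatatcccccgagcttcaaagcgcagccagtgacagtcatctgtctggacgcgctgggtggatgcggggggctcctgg
Mxd1 (chr6:86669110-86669409, minus strand): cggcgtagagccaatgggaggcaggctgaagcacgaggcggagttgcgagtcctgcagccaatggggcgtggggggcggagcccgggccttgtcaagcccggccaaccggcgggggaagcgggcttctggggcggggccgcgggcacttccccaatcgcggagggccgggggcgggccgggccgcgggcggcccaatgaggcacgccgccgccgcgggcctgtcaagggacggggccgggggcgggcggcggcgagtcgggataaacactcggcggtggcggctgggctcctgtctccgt
A match describes the letters only. Of the called members whose promoter was read, Max and Mycn, which hold a match, were lower in dysplasia, while Mxd1 and Mxi1 hold neither motif in these windows and moved in opposite directions.

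The same letters were sought in the genes known as induced by Myc. A promoter was matched for 36 of them and the E-box was present in 6 (16.7%), against 8.09% of 27025 genes. Split by the call in dysplasia versus transgenic, a split made after the calls were known and therefore not tested, the E-box was in 5 of the 13 genes with a promoter that were called higher (38.5%) and in 1 of the 19 others that were tested (5.26%). The 5 were Ldha, Cdk4, Nme1, Hspd1 and Pes1, and the 1 was Eif4e, which was called higher in dysplasia versus non-transgenic (log2 change 0.59, adjusted p = 0.00766), so that the split depends on the comparison. Ldha holds the E-box 48 and 145 bases before its start site, and Cdk4 holds it 4 times, at 11, 98, 118 and 172 bases before its start site. The windows below show 1 such site of each of the 5 genes that were called higher, with the E-box in capitals and up to 10 bases on either side.
Ldha (chr7:46845746-46845771, plus strand): gcccagcctaCACGTGggttcccgca
Cdk4 (chr10:127063407-127063432, plus strand): gtcaaggggtCACGTGggatagcaac
Nme1 (chr11:93968275-93968300, minus strand): tgcggggaacCACGTGaggccgggga
Hspd1 (chr1:55088308-55088333, minus strand): ccggctgggaCACGTGaaaaggccgc
Pes1 (chr11:3963967-3963992, plus strand): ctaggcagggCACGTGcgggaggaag
Beside these letters stand the signals. Cdk4, the kinase of the G1 phase, averaged 2137 in dysplasia, 1517 in unaltered transgenic and 1371 in non-transgenic tissue (ratio 1.41 to transgenic, adjusted p = 0.0108). Nme1, a nucleoside diphosphate kinase, averaged 2197 in dysplasia, 1438 in unaltered transgenic and 1184 in non-transgenic tissue (ratio 1.53 to transgenic, adjusted p = 6.96e-04). Hspd1, a mitochondrial chaperone, and Pes1, a protein of ribosome assembly, had smaller ratios of 1.39 (adjusted p = 0.0466) and 1.30 (adjusted p = 0.00643).

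**Figure D4:**
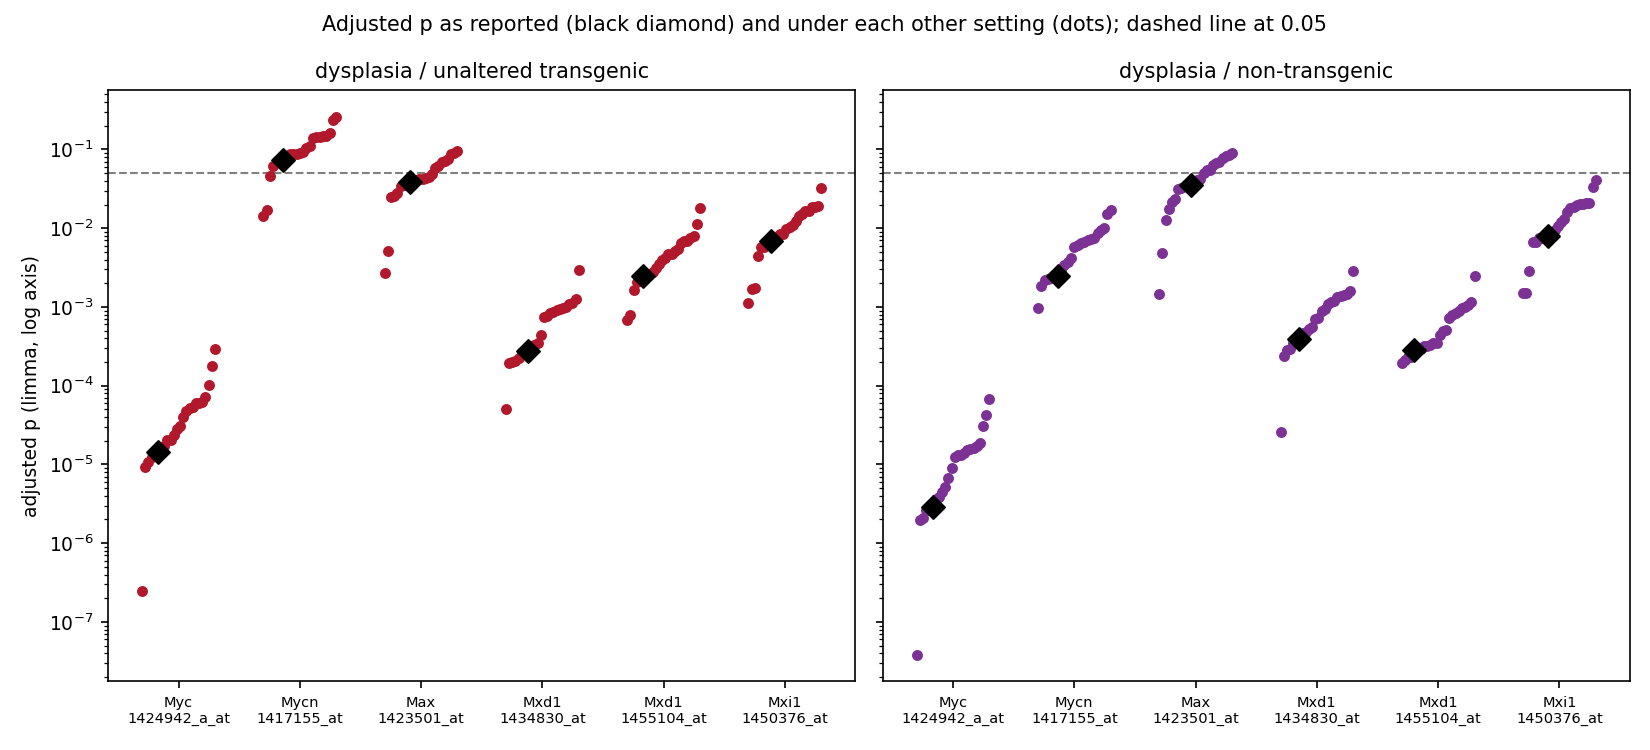
Adjusted p by limma (log axis) of 6 probe sets of the network, as reported (black diamond) and under each other setting of the analysis (dots), for dysplasia over unaltered transgenic tissue on the left and dysplasia over non-transgenic tissue on the right. The dots of Myc, Mxd1 and Mxi1 all lie below the dashed line at 0.05, while those of Max lie on both sides of it in both panels, and those of Mycn do so on the left.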

How the data were processed

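Transcripts were measured in 15 laser-microdissected lung samples on Affymetrix arrays with 45101 probe sets, of which 64 controls were left out. The deposited values are intensities made by the authors: GCOS (version not given in the sources used here) gave 1 linear signal per probe set, scaled to a target of 500 on each array. They were used as deposited, with no detection calls. The number of arrays limits the precision. The annotation of the array gave 34945 probe sets 1 symbol, 932 several and 9160 none.

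With limma 3.58.1 (R 4.3.3), log2(signal + 50) was modelled for 2 groups at a time, unpaired as in the methods of the study, over the 21658 probe sets with a mean signal above 100. P-values are two-sided, adjusted by Benjamini-Hochberg over all of them, and called below 0.05. The fit was tested on simulated data. Ratios are of mean signals, while log2 changes include the offset of 50 and understate those of dim probe sets.

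Per the methods, each mouse with dysplasia gave both its dysplastic and its unaltered tissue, though the array number is not said to mark the mouse. Same-numbered arrays of dysplasia and transgenic tissue deviated together, with correlations of 0.22 to 0.77 over all tested probe sets (mean 0.61, against -0.15 between different numbers). The lowest was that of number 4, where Xist was 9674 on dysplasia 4 and 85.0 on transgenic 4. Number 4 thus joins arrays that differ in this marker of female tissue and cannot be read as 1 mouse. With the array number as a replicate block 6 in place of 5 of the 11 member probe sets were called, the added one being Mycn (log2 change -0.42), while the share of all probe sets called was 49.2% in place of 33.2%. Transgenic and non-transgenic arrays of 1 number, which come from different mice, also deviated together (0.13 to 0.79, mean 0.45, against -0.108 between different numbers). Those of dysplasia and non-transgenic tissue did so in most but not every case (-0.0037 to 0.73, mean 0.41, against -0.0995). These correlations therefore cannot show that an array number marks a mouse.

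The members and gene lists were chosen with earlier results of these data known. All 9 genes are reported, with up to 4 called genes per list and comparison by smallest p, and the 3 probe sets most like each called member. Alternatives were the offset, the limit on dim probe sets, quantile and total scaling, an intensity trend, a joint fit, the block, the actin ratio or Xist as a covariate, and leaving out arrays. Those for the counts of gene lists were added after seeing the data.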

Additional observations from a re-analysis of the deposited data

Results flagged for a closer look

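Of 33 groups of 5 arrays checked, 2 held an array far from the rest, where chance gives about 1 in 20. For Mxd4 (1434379_at) dysplasia 1 had a signal of 1454, with the next at 1009 and the lowest at 931. For Mnt (1418192_at) transgenic 1 had a signal of 1681, with the next at 1128 and the lowest at 1044. Neither probe set was called in any comparison, with or without these arrays.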

How the results depend on the processing

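Over all alternatives the 11 probe sets gave 756 values, of which 733 stayed on their side of the threshold, 17 lost a call and 6 gained one. No value called in either setting changed its direction. Uncalled values could change sign, as for Mnt in dysplasia versus transgenic (log2 change -0.16 to 0.08 over the alternatives). All 17 losses were of Max. Beside the arrays named above, its call was lost with no limit on the mean signal (adjusted p = 0.0609 in dysplasia versus transgenic and 0.0541 in dysplasia versus non-transgenic) and without the arrays numbered 4 (0.0713 and 0.0915). Gains were Mycn and Mxd4, as given above, and Mxd3 in dysplasia versus non-transgenic with the array number as a replicate block (adjusted p = 0.0164), which is not a pairing there, or with the actin ratio as a covariate (adjusted p = 0.0156). The block changed no other member call. In transgenic versus non-transgenic the count of all probe sets called, 272, was 110 with Xist as a covariate, 506 with the actin ratio and 81 without the arrays numbered 4, and it ranged from 118 to 291 when 1 array was left out (147 without transgenic 2, 123 without transgenic 3, and 126, 143, 118 and 179 without non-transgenic 1, 2, 3 and 4), while the count of members called stayed at 0. The 3 Myc-induced genes called higher there became 1 when arrays were scaled to 1 common total, 1 with no limit on the mean signal, 1 with the block, 0 with Xist, 5 with the actin ratio and 0 without the arrays numbered 4, and ranged from 0 to 4 without 1 array. The causes were not tested. Without 1 array, the Myc-induced genes called higher numbered 14 to 19 in dysplasia versus transgenic. Signals near 100, as for Mycn, lie near the background of the array and limit the fold changes.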
